A study of Drosophila melanogaster with 3 samples.

Results

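Bsh, the brain-specific homeobox transcription factor, was mapped at 10 genes for neuronal RNA-binding proteins: elav, fne, Rbp9, Rbfox1, bru3, mbl, Syp, Imp, msi and orb2. They were taken by name from the deposited lists of genes near a peak, with all lines of a gene kept, out of 17684 RefSeq genes on the chromosomes with any peak. The lists write Rbfox1 as A2bp1 and bru3 as bru-3, and all 10 genes matched a RefSeq gene. A Bsh:Dam transgene was expressed with R31C06-Gal4 in lamina neuron 4 (L4), a visual interneuron of the Drosophila optic lobe, while tubP-Gal80[ts] kept it silent outside a window of 46 to 76 hr APF (after puparium formation). All 3 biological replicates belong to this 1 condition, each made from pooled laminae of many pupae, and the flies kept their own bsh gene. Dam methylates GATC sites near the place where the fusion protein binds, so that a peak marks a stretch of GATC fragments with more Bsh:Dam than Dam signal. Bsh binding was the only measurement. RNA was not measured, so the L4 label could not be checked against marker transcripts, and the expression of the 10 genes was not analysed here.

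RNA-binding proteins act on transcripts after transcription: they choose exons and polyadenylation sites, place mRNAs within the cell and set when an mRNA is translated. The nervous system of the fly uses many of them, and the ELAV protein is the standard marker of a postmitotic neuron. The 10 genes fall into 4 groups. The ELAV family (elav, fne and Rbp9) acts on alternative splicing, polyadenylation and mRNA stability. Rbfox1, bru3 and mbl encode splicing regulators of the Rbfox, CELF and Muscleblind families. Syp and Imp encode the mRNA-binding proteins Syncrip and IGF-II mRNA-binding protein. Their opposed levels in neural stem cells help to set the fate of neurons according to when they are born. Musashi (msi) and the CPEB protein Orb2 (orb2) control translation, the former in asymmetric cell divisions and the latter in long-term memory.

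Scores above 2.5, the threshold of the study's methods, were found in every replicate for 5 of the 10 genes: msi, elav, Syp, mbl and fne. The score is the value of the authors' peak caller, computed from log2 ratios of Bsh:Dam over Dam. Another 4 genes, Rbfox1, bru3, Rbp9 and orb2, passed 2.5 in 2 of the replicates, and Imp had no listed peak in any. The call in all replicates was made for 10.6% of 13922 protein-coding genes and 9.74% of all annotated genes, and 12.8% of protein-coding genes passed in at least 2 replicates, as 9 of the 10 genes did. By replicate, 8, 9 and 6 of the 10 genes passed 2.5 in replicates 1, 2 and 3, where 13.1%, 13.4% and 11.6% of protein-coding genes did. Without replicate 3 the number that passed in both remaining replicates was 8, as bru3, orb2 and Rbp9 were added, and the share of protein-coding genes was 12.3%.

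The RNA-binding protein genes are long, with a median length of 45204 bp, and long genes offer more room for a peak. Among protein-coding genes of 10 to 20 kb, 26.3% were called in all 3 replicates, and elav was called in that class whereas Rbp9 and orb2 were not. The share was 42.7% for genes of 20 to 50 kb, where fne was called and Imp was not. For genes of 50 to 100 kb it was 60.7%, and both Syp and msi were called. Genes of 100 kb or more were called in 56.6% of cases, and of Rbfox1, bru3 and mbl in this class only mbl was. The count of 5 of 10 is therefore nearer to the shares of long genes than to the share of all protein-coding genes, and nothing particular to RNA-binding proteins is read from it. Shares by length class are given for the call in all 3 replicates alone. The counts by replicate, in at least 2 replicates and without replicate 3 have no such share, and nothing is read from those either.

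**Figure D1:**
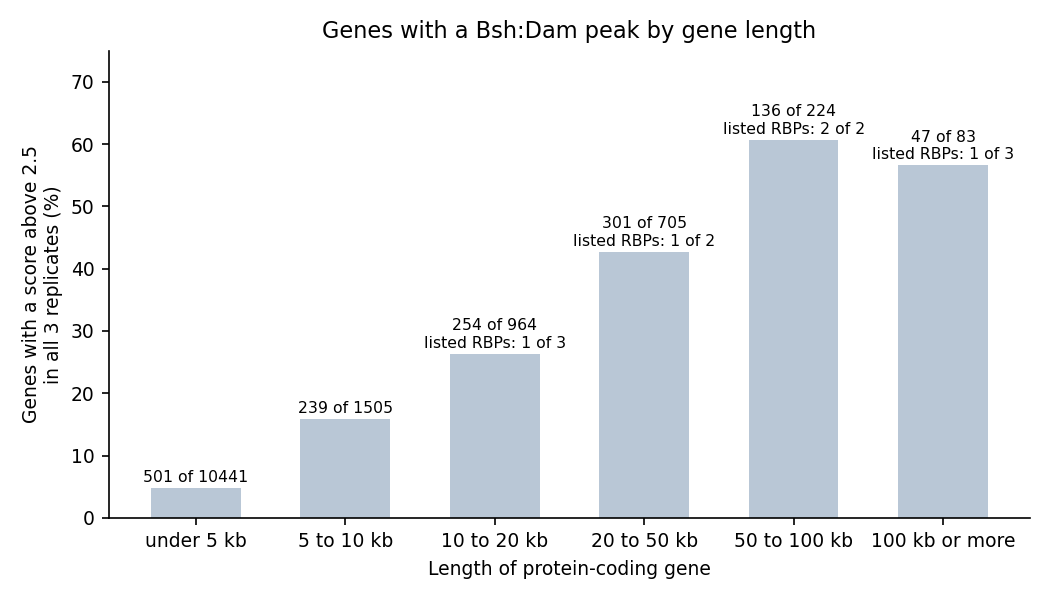
Share of protein-coding genes with a score above 2.5 in all 3 replicates (vertical axis, percent) in 6 classes of gene length (horizontal axis). Numbers above the bars give called genes of all genes in the class and, as listed RBPs, the same for the 10 RNA-binding protein genes. The share rises from 4.8% under 5 kb and 15.9% at 5 to 10 kb to 60.7% at 50 to 100 kb and is 56.6% at 100 kb or more.

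The highest scores among the 10 genes were those of msi, elav, Syp and mbl, which lay above 3.6 in every replicate. By mean score, msi led with 4.11 ± 0.26 (SD, n = 3), followed by elav with 4.03 ± 0.26, Syp with 3.97 ± 0.10 and mbl with 3.80 ± 0.17. The ranges of neighbours in this order overlapped, so these 4 genes were not separated by their replicates. Next came Rbfox1 with a mean of 3.68 over 2 replicates, bru3 with 3.19 ± 0.65 and fne with 3.04 ± 0.16. The lowest were Rbp9 with a mean of 2.70 over 2 replicates and orb2 with 2.61 ± 0.20. From msi to orb2 the only neighbours whose ranges did not overlap were fne and Rbp9, whose nearest values were 2.86 and 2.85. The scores of msi, elav, Syp and mbl all lay above every score of fne, Rbp9 and orb2. No p-value is given for these differences, since 3 values against 3 cannot go below 0.1 in a two-sided exact permutation test.

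**Figure D2:**
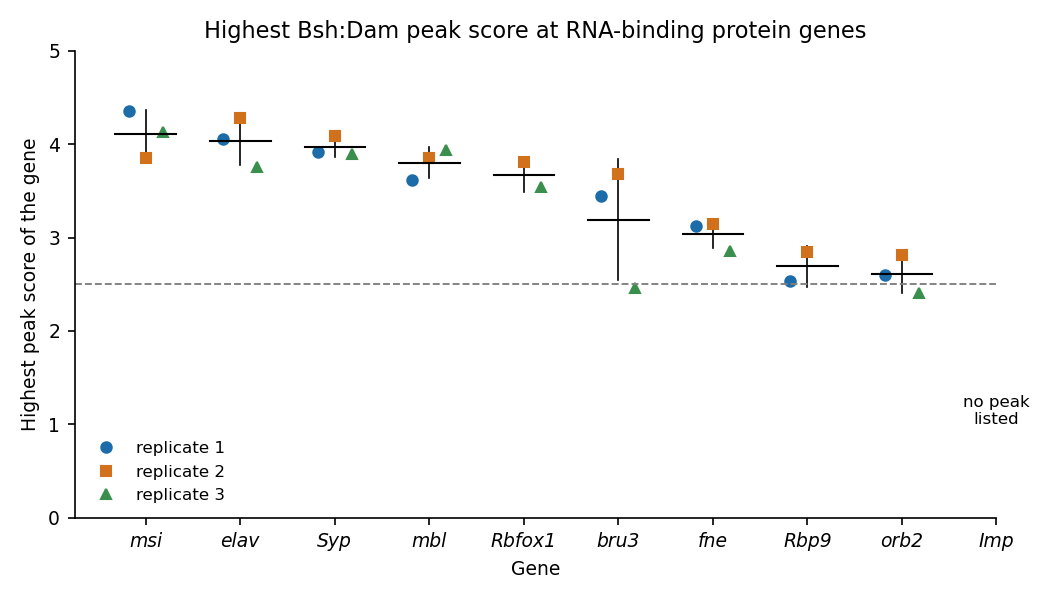
Highest peak score (vertical axis) of each of the 10 genes (horizontal axis), with 1 point per replicate, a horizontal bar at the mean, a thin vertical line of 1 SD on either side, and the threshold of 2.5 as a dashed line. All points of msi, elav, Syp, mbl and fne lie above 2.5, the replicate 3 points of bru3 (2.46) and orb2 (2.41) lie below it, Rbfox1 and Rbp9 have 2 points each, and Imp has none.

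Within the ELAV family the score ranges of the 3 genes did not overlap, but those of fne and Rbp9 were barely apart. The lowest score of fne was 2.86 and the highest of Rbp9 was 2.85, and Rbp9 was not listed in replicate 3. The elav gene, which gives the family its name and is expressed in all neurons, scored 4.06, 4.28 and 3.76 in replicates 1, 2 and 3. In rank, elav matched or exceeded 89.1%, 93.9% and 83.9% of the genes that the respective replicate listed. Of the 1478 protein-coding genes called in all replicates, 84.6% had a mean score at or below that of elav. All of its signal came from a single peak, on X:520252-524768 in replicates 1 and 3 and on X:521403-523668 in replicate 2, with FDRs between 2.78e-09 and 4.37e-08. At 4517 bp, the peak of replicates 1 and 3 was at least as long as 97.9% and 98.2% of the peaks in those replicates. It crossed a border of the gene and also lay within 1 kb of arg, which encodes arginase, and of lncRNA:enrr. As a result arg carried the same scores as elav in every replicate, and the lists cannot assign the peak to one gene or the other. The name lncRNA:enrr was matched to no line of the gene lists.

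The fne gene (found in neurons), a close relative of elav, had 3 peaks in each replicate and lower scores. Its highest scores were 3.12, 3.15 and 2.86 in replicates 1, 2 and 3, close to the middle of the listed genes (at or above 51.0%, 49.8% and 51.3%). The peak X:12938362-12940127 had the same borders in all replicates and scored 2.99, 2.93 and 2.86, and it was the only fne peak above 2.5 in every replicate. Its FDR was 0.00919 in replicate 1, 0.00489 in replicate 2 and 6.03e-06 in replicate 3. A second peak, between X:12924600 and 12927889, scored 3.12 and 3.15 in replicates 1 and 2 but 2.47 in replicate 3. The third, ending at X:12918651, went the other way, with 2.25 and 2.13 in replicates 1 and 2 and 2.58 in replicate 3.

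Rbp9, the ELAV family gene that also works in the female germ line, had a single peak, on 2L:2955678-2959304 with the same borders in replicates 1 and 2. It scored 2.54 and 2.85 there, at or above 24.2% and 34.2% of the listed genes. Its FDRs of 0.00976 and 0.00616 were close to the authors' limit of 0.01, and 0.00976 was the highest of any peak in replicate 1. In replicate 3 no peak of Rbp9 was listed, and the nearest one lay 9.0 kb from the gene, at lilli. The order elav, fne, Rbp9 held in each replicate that listed them, and the lowest score of elav (3.76) was above the highest of fne (3.15).

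The 3 splicing regulators outside the ELAV family are the longest of the 10 genes, between 112601 and 281494 bp, and had between 0.083 and 0.12 peaks per 10 kb on average. The other 6 genes with a listed peak had between 0.49 (Rbp9) and 0.96 (orb2) per 10 kb, and Imp had 0. All 83 protein-coding genes of 100 kb or more had a mean of 2.54 and a median of 2 peaks per replicate, beside means of 2 for mbl, 2.33 for bru3 and 1 for Rbfox1. The mbl gene, for the Muscleblind protein that sorts exons between developmental and mature forms, was called in every replicate with scores of 3.62, 3.85 and 3.94. This peak, within 2R:17341560-17342665, was the only one of the 10 genes' highest peaks to score most in replicate 3, where it was at or above 89.7% of the listed genes. A second mbl peak within 2R:17287191-17290483 stayed below 2.5 with 2.22, 2.47 and 2.15. No other annotated gene lay within 1 kb of either.

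Rbfox1, which encodes a splicing factor shared between flies and vertebrates, had no peak in replicate 1, but scores of 3.81 and 3.54 in replicates 2 and 3. The peak of replicates 2 and 3 had the same borders, 3L:10533708-10535363, and a further peak on 3L:10539474-10541273 was listed in replicate 2 with a score of 3.21. In replicate 1 the nearest peak was 36.4 kb from the gene. Rbfox1 thereby matched or exceeded 78.8% and 76.0% of the listed genes, yet the FDRs were 0.00873 and 0.00706, and 0.00911 for the further peak, all near the limit of 0.01. A peak that fell just short of that limit would not be listed, and weaker signal in replicate 1 cannot be read from the files.

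The CELF family gene bru3 had scores of 3.44 and 3.68 in replicates 1 and 2 and of 2.46 in replicate 3, just under the threshold. Its peak within 3L:13780353-13783235 gave the 3.44 and 3.68 of the former replicates and scored 2.43 in replicate 3, where it was also broader, 2883 bp against 1618 bp. A second peak, 3L:13799337-13803251, had the same borders in all replicates and scored 2.77, 3.0 and 2.46. The third, 3L:13614342-13616169, was listed in replicate 1 alone, with a score of 2.20 and an FDR of 0.00976. Scores in replicate 3 were lower across the whole series, with a median of 2.77 over all peaks against 2.98 and 3.08. The rank of bru3 was lower there too, at or above 31.0% of the listed genes against 63.4% and 73.4% in replicates 1 and 2.

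Syp and Imp, whose products pattern neuronal fate together, differed in that Syp had peaks in every replicate and Imp had none. Syp scored 3.92, 4.09 and 3.90, the smallest SD among the 9 genes with a listed peak, and was at or above 84.2%, 89.7% and 88.3% of the listed genes. It had 4 peaks found in all 3 replicates, and all of them passed 2.5 in each. The highest was also the shortest peak of the 10 genes, 326 bp on 3R:20774621-20774946 with the same borders in every replicate, and at most 0.692% of the peaks of a replicate were as short or shorter. This peak alone gave the scores and SD of Syp. Its FDRs of 0.00119, 0.00145 and 0.000919 in replicates 1, 2 and 3 were higher than those of the other Syp peaks. The peak 3R:20768403-20770442 scored 3.74, 3.48 and 3.37 and lay within 1 kb of Takl1 as well, and 3R:20781964-20783402 scored 3.74, 3.87 and 3.31. The last of the 4, within 3R:20803686-20804555, scored 3.27, 3.31 and 3.09. One further peak, 3R:20766322-20768265, was listed in replicate 3 alone, with a score of 2.86 and an FDR of 1.36e-09. It ends just before the start of the Takl1 peak.

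Imp had no peak within 1 kb in any replicate. The nearest peak was the same in all 3 replicates, starting at X:10857482, 33.2 kb from the gene, with scores of 1.80, 2.16 and 1.96, and it lay at CG2186 and sofe. Among protein-coding genes of 20 to 50 kb, the class of Imp, 59% had a listed peak in at least 1 replicate, so a gene of this length without any peak was common. The lists hold only peaks that passed the authors' limits, and they do not show whether weaker binding was present at Imp.

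The msi gene had the highest mean score and the most peaks, with 4, 5 and 5 in replicates 1, 2 and 3. By mean number of peaks it ranked 44 and Syp ranked 55 among 13922 protein-coding genes, with means of 4.67 and 4.33. Both genes are long, and the 224 protein-coding genes of 50 to 100 kb, the class of both, had a mean of 2.03. The highest msi peak, which began at 3R:25571429 in every replicate, scored 4.36, 3.85 and 4.13, at or above 96.1%, 80.7% and 93.8% of the listed genes. It lay within 1 kb of no other annotated gene. In replicate 2, where its score was lowest, it was 2491 bp long against 1096 bp in both others. A second strong peak within 3R:25586319-25589973 scored 3.52, 3.76 and 3.20, and it also lay within 1 kb of mir-1000, a microRNA of fly neurons, and lncRNA:CR45910, which both carried these scores as their highest. The remaining peaks were weaker. Those on 3R:25532372-25533062 (2.04, 2.21 and 2.69) and 3R:25548716-25549996 (2.33, 2.48 and 2.05) kept their borders in all replicates, whereas 3R:25535284-25540244 (1.99) was listed in replicate 2 alone and 3R:25595130-25595964 (1.57) in replicate 3 alone.

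The orb2 gene scored 2.60, 2.81 and 2.41, at or above 26.4%, 32.9% and 28.4% of the listed genes, a rank that hardly moved although replicate 3 fell below 2.5. It had peaks within 3L:8945495-8949635 in all replicates, with 2.49, 2.81 and 2.41, and on 3L:8949635-8951971 in replicates 1 and 2, with 2.60 and 2.70. Both lay within 1 kb of CG43783, which spans most of orb2 and carried the same highest scores in every replicate. The orb2 peaks can thus not be assigned to one of the genes.

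**Figure D3:**
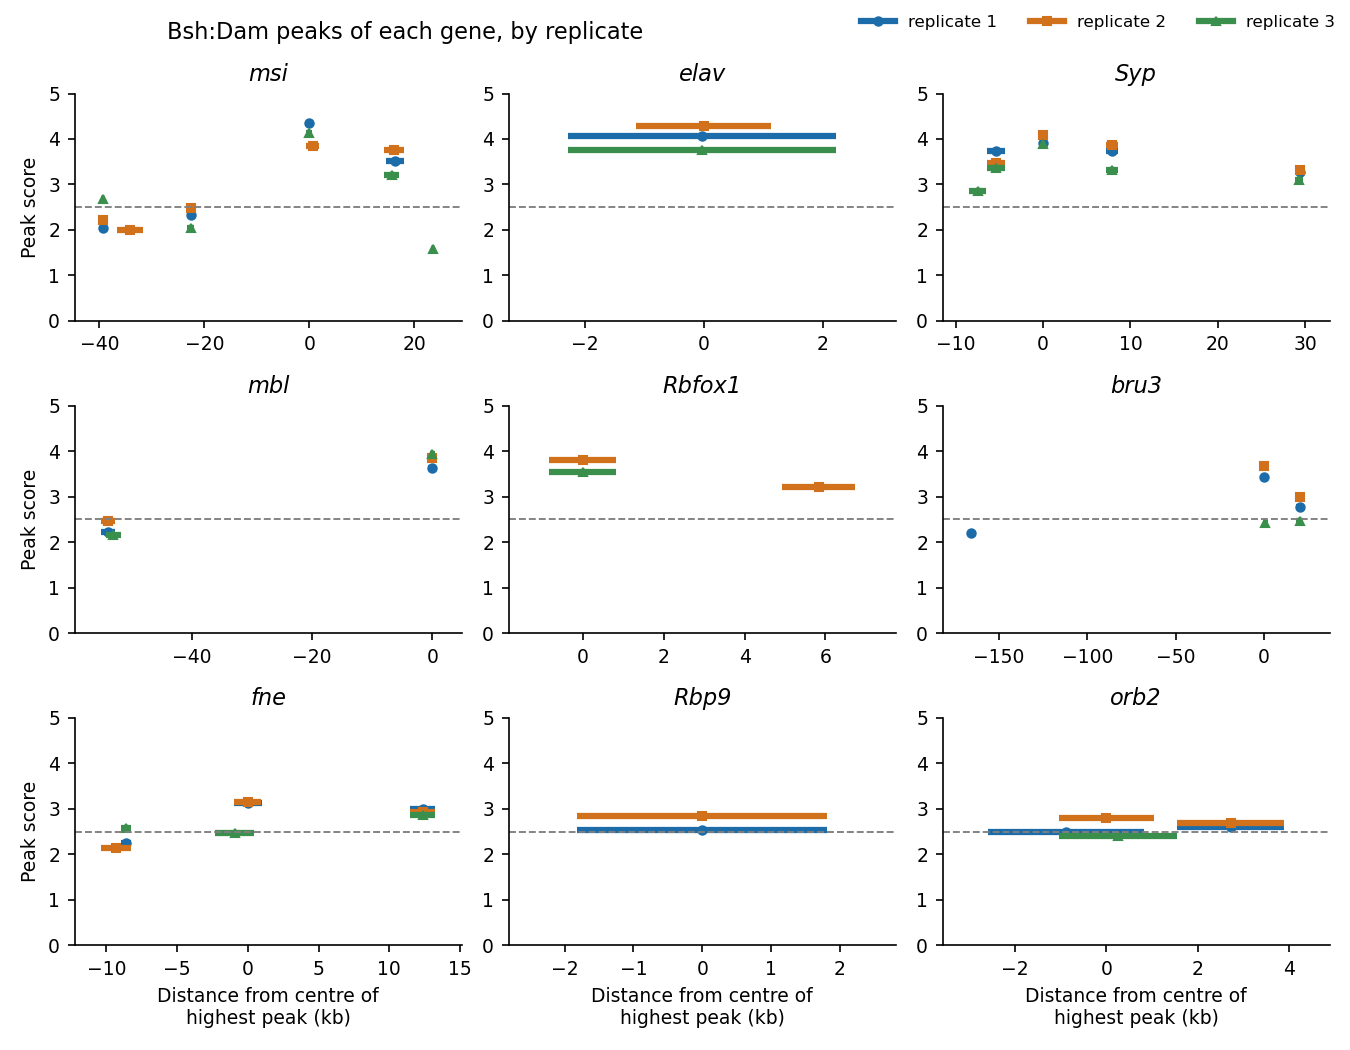
Peaks of the 9 genes with a listed peak, drawn to scale in 1 panel per gene: the horizontal axis is the distance in kb from the centre of that gene's highest peak and differs between panels, and the vertical axis is the peak score. Each bar is a peak from start to end with a marker at its centre, colours are replicates, and the dashed line is 2.5. All peaks of Syp lie above 2.5, 4 of them found in all replicates, whereas bru3, fne, msi, mbl and orb2 have peaks on both sides of it.

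When peaks that overlapped between replicates by at least 10 bp were joined, the 9 genes held 25 regions. Of these, 17 were found in all 3 replicates, 3 in 2 replicates and 5 in 1 replicate. In 7 regions the borders were identical in all replicates, and 9 regions passed 2.5 in all replicates: 4 in Syp, 2 in msi and 1 each in elav, fne and mbl. By replicate, 14 of 20, 17 of 22 and 13 of 20 peaks of these genes passed 2.5, beside 75.7%, 79.3% and 64.9% of all peaks. The peaks of these genes thus passed about as often as peaks of the whole series. Of the 62 peaks behind the regions, 58 lay inside their gene and 4 crossed a border. No other annotated gene lay within 1 kb of 18 of the 25 regions. Shares over all peaks are not given for identical borders, place in the gene or neighbours, so these counts only describe the regions. Peaks of these genes were found again in both other replicates in 90.0%, 81.8% and 85.0% of cases for replicates 1, 2 and 3, beside 83.6%, 83.4% and 81.9% of all peaks. With 20, 22 and 20 peaks, a difference of 1 or 2 peaks covers these gaps. For the second orb2 peak of replicates 1 and 2 this rests on 1 shared base, where the replicate 3 peak ends.

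Several regions that were missing from a replicate had an FDR near the authors' limit. Of the 8 regions not found in all replicates, 4 had a peak with an FDR above 0.005: the Rbp9 peak, both Rbfox1 peaks and the bru3 peak of replicate 1. Of the 17 regions found in all replicates, 3 had one, in fne and bru3. Across the whole series, peaks with an FDR of at least 0.005 were found in both other replicates in 43.6%, 42.3% and 43.9% of cases, against 93.1%, 91.8% and 90.2% of peaks with an FDR below 0.001. With peaks limited to an FDR below 0.001, msi, elav, Syp, mbl and fne were again the genes above 2.5 in all replicates. For fne this held through the peak at 3.12 and 3.15 in replicates 1 and 2 and another peak, at 2.86, in replicate 3.

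**Figure D4:**
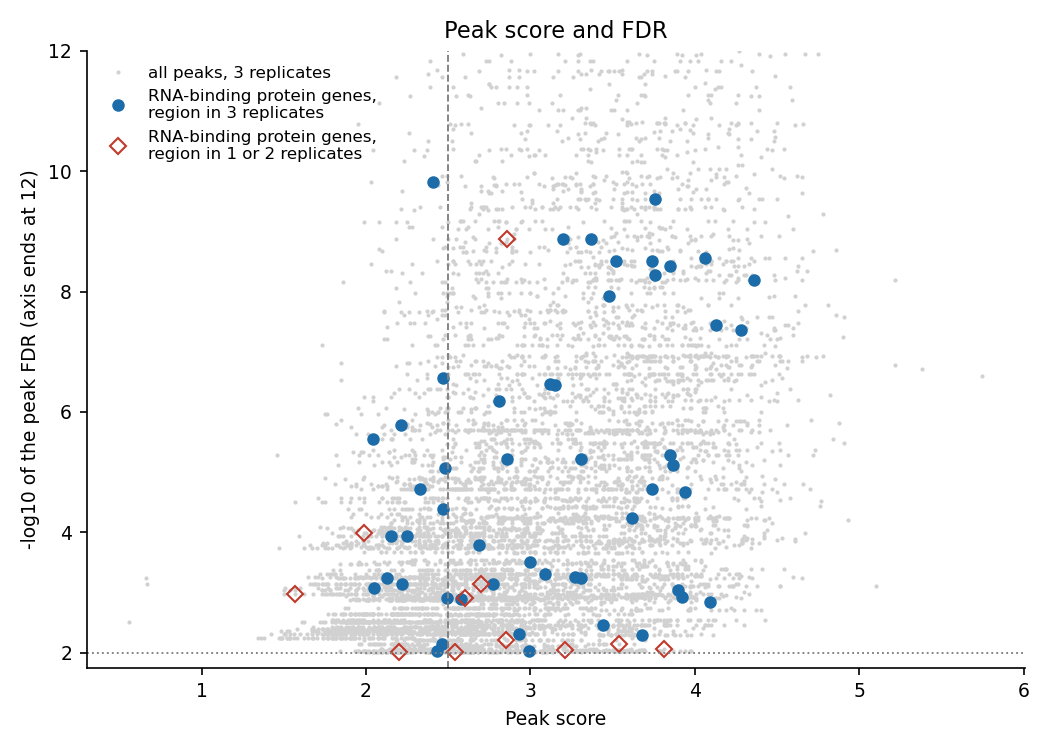
Score (horizontal axis) and FDR as its negative log10 (vertical axis, ending at 12, so that 493 of 8563 peaks lie above the plot) of all peaks of the 3 replicates in grey and of the peaks of the 9 genes in colour. Open diamonds are regions found in 1 or 2 replicates and filled circles regions found in all 3, the dashed line is a score of 2.5, and the dotted line is the FDR limit of 0.01. Several open diamonds lie along the dotted line, among them those of Rbfox1 with scores of 3.21 to 3.81.

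To set the 10 genes beside others of their kind, 50 further RNA-binding protein genes, picked for function, were counted in the same way. Of these, 23 (46%) were called in all 3 replicates, 7 had a listed peak without meeting the threshold in all replicates, and 20 had none. Among the last is nanos, whose older symbol nos is ambiguous in RefSeq, so a line under that symbol would not have been matched. The median length of the 50 genes, 7779 bp, is well below that of the 10 genes. By length, 1 of 15 was called under 5 kb, 5 of 14 at 5 to 10 kb, 3 of 5 at 10 to 20 kb, 6 of 7 at 20 to 50 kb, 3 of 3 at 50 to 100 kb and 5 of 6 at 100 kb or more. In each class this share lay above that of all protein-coding genes, which was 4.8%, 15.9%, 26.3%, 42.7%, 60.7% and 56.6% in the same order. This describes small classes with no test. The list was also chosen with earlier results of these data known, so no preference for RNA-binding protein genes is read from it. By replicate, 26, 26 and 23 of them passed 2.5. The mean highest score of the called genes had a median of 3.39 in the wider list, 3.97 for the 5 called genes above and 3.47 for all 1478 called protein-coding genes. These medians were not matched for gene length or number of peaks. The 5 with the highest means were ps (4.35 ± 0.07, SD, n = 3), pum (4.34 ± 0.11), bru2 (4.21 ± 0.26), nito (4.14 ± 0.09) and mub (4.12 ± 0.13). The first is pasilla, the fly relative of the Nova splicing factors, and pum encodes the translational repressor Pumilio. The bru2 gene is of the same CELF family as bru3, nito encodes Spenito, which takes part in RNA adenosine methylation, and mub a protein with KH domains.

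Of the 6 closest relatives of the 10 genes, 4 were called and 2 had no peak. By length class, 56.6% of protein-coding genes were called in that of Rbp6 and bru1 and 60.7% in that of bru2. The share was 42.7% in the class of Sxl and orb and 4.8% in that of ssx. In the CELF family, bru2 scored 4.34, 4.38 and 3.91 in replicates 1, 2 and 3, above bru3 in each, whereas bru1, which is 138435 bp long, had no listed peak. The Musashi relative Rbp6 scored 3.70, 3.72 and 3.59, below msi in each replicate. The CPEB gene orb, known for its role in the oocyte, scored 3.33, 3.42 and 2.77, above orb2 in each. Sxl, the switch gene of sex determination, whose protein resembles ELAV in its RNA recognition motifs, scored 3.65, 3.70 and 3.67, and its sister gene ssx had no peak. Each of the CELF, Musashi and CPEB families thus held a called gene, and the CELF and CPEB families also held one that was not called. Calls are common at the lengths of the called genes, so nothing particular to these families is read from this.

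**Figure D5:**
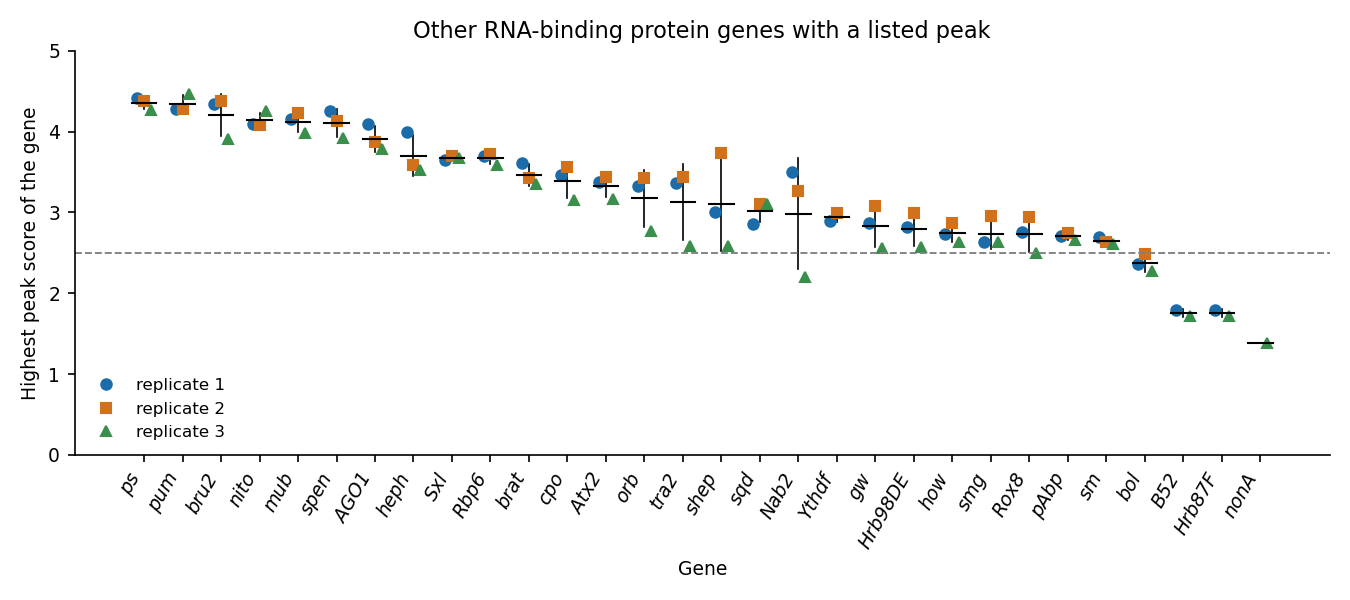
Highest peak score (vertical axis) of the 30 genes of the wider list with a listed peak (horizontal axis), with 1 point per replicate, a bar at the mean, a thin line of 1 SD on either side and the threshold of 2.5 dashed. The other 20 genes have no point. The means run from 4.35 for ps to 1.38 for nonA, which was listed in 1 replicate.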

How the data were processed

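Targeted DamID of Bsh:Dam was performed in L4 neurons, with 3 replicates in 1 group. The authors assessed reads with FastQC 0.11.9, ran the damidseq pipeline to obtain log2 ratios of Bsh:Dam to Dam, and called peaks in each replicate with find_peaks (FDR below 0.01, min_quant 0.9). The deposited peak score and FDR are those of the peak caller, and the deposited gene lists give a score for each gene within 1 kb of a peak (peaks2genes). The genome build is not given in the sources used here. No reads, Dam-only tracks or sequences were analysed, so the depth behind a peak is unknown and no interval was computed.

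Scores were summarised with Python 3.11.15, numpy 2.4.6 and pandas 2.3.3, and plotted with matplotlib 3.10.9. A gene was called when each of the 3 replicates listed it above 2.5. Older symbols, lengths and neighbouring genes came from RefSeq (Release 6 plus ISO1 MT), to which 3110 of 3129, 3057 of 3093 and 3166 of 3206 symbols matched. The listed score was found within 1 kb of the gene for 99.9% of matched lines, and for at most 8.11% after a shift of 50000 bp. Peak positions are those of the files. With 1 condition there was no comparison between groups and no test. Overlap and counting were checked on simulated data.

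The 10 genes and the lists were chosen with earlier results of these data known. Named were the 10 genes, the 5 highest genes and the 6 family relatives of the wider list, and neighbours of a peak. Alternatives were other thresholds, numbers of replicates, overlaps and FDR limits, each replicate left out, and a threshold by rank, added after the data were seen.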

Additional observations from a re-analysis of the deposited data

How the results depend on the processing

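The count of 5 called genes was 7 with any listed peak, 4 with a threshold of 3, and 5 both with peaks on the gene span alone and with an FDR below 0.001. It rose to 9 when at least 2 replicates had to pass and stayed at 9 for at least 1, and it ran from 5 to 8 when each replicate was left out. With a threshold at equal rank in each replicate (2.51, 2.58 and 2.33, an alternative chosen after seeing the data) it was 7, with bru3 and orb2 added. For the wider list the 23 called genes became 13 with a threshold of 3, and the other settings gave 23 to 26. The share of protein-coding genes was 10.6% at the main setting, 12.8% for at least 2 replicates and 12.3% without replicate 3. It is not given for any listed peak, a threshold of 3, an FDR below 0.001 or equal rank. Nor is it given for at least 1 replicate, without replicate 1, without replicate 2 or for peaks on the gene span alone. Counts at those settings therefore describe the listed genes alone. The median score over the 9 listed genes, 3.68, was 2.88 when the lines of a gene were averaged, since weaker peaks then count. The mean number of peaks per replicate, 20.7, was 14.7 either above 2.5 or at an FDR below 0.001. The 17.7 peaks shared with both other replicates became 15 at a reciprocal overlap of 50% and 7 with identical borders. No paired analysis was possible because there is 1 group. The lists hold no depth, and peaks below the authors' limits are not listed.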

Other observations

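Rbp6, the Musashi relative of msi, had 14, 14 and 13 peaks in replicates 1, 2 and 3, a mean of 13.7, which was the highest of all 13922 protein-coding genes, although its highest score of 3.72 was passed by many genes. The gene is 179439 bp long, and protein-coding genes of 100 kb or more had a mean of 2.54 peaks. The 20 genes of the wider list without a listed peak in any replicate include Fmr1, the fly gene of the fragile X protein, stau, which localises mRNA, and me31B, a component of RNA granules. Their lengths of 8702, 7884 and 2832 bp fall in classes whose protein-coding genes had a median of 0 peaks. B52 and Hrb87F carried the same low scores, 1.79 in replicate 1 and 1.72 in replicate 3, and neither was listed in replicate 2. Both lie on chromosome 3R, and whether 1 peak gave the scores of both genes was not checked. Rbp6 is named here for its family, and the number of its peaks, Fmr1, stau, me31B, B52 and Hrb87F were singled out after their values were seen.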
